A study of Mus musculus with 12 samples.

Results

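The prosensory transcription factors described here are Gata3, Isl1, Lmo4, Eya1, Eya4, Pax2 and Pax8, which were chosen by name. These 7 genes were read from a table of 28686 gene symbols counted in 12 cochlear libraries, and 6 of them were among the 18459 genes with enough reads to be tested. The study compared cochleae at postnatal day (P) 6 from 6 Sox2CreER/+Jag1fl/fl mutants and 6 Sox2+/+ littermate controls. Mutants carry floxed alleles of Jag1, a ligand of the Notch pathway, and a tamoxifen-inducible Cre driven from the Sox2 locus, which is active in supporting cells. Pups of both genotypes received tamoxifen at P0 and P1. By the study's matings the controls also carry 1 or both floxed Jag1 alleles but no CreER, and the 2 groups therefore also differ at the Sox2 locus. The labels give the strain of all mice as C57BL/6;129SV. The paper's methods differ, with a C57BL/6 background for the Cre line and FVB/n for the floxed Jag1 line. Cochlear tissue was not sorted. In such bulk samples, fewer cells of a type and less RNA per cell cannot be told apart.

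In the embryonic ear these factors act in layers. The paired-domain proteins PAX2 and PAX8 and the EYA coactivators belong to the early otic program. GATA3 and the LIM-homeodomain factor ISL1 mark the prosensory domain that gives rise to hair cells and supporting cells, and the Notch ligand JAG1 together with SOX2 specifies the same domain. LMO4 is a LIM-only adaptor that competes with LIM-homeodomain proteins for the cofactor LDB1.

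Total counts per library were between 28498549 and 36134983. Levels are given in counts per 1000000 reads (CPM) after scaling of the libraries. Jag1, the targeted gene, fell from 102 ± 14.7 CPM (mean ± SD, n = 6, as throughout) in the control group to 36.4 ± 6.56 CPM in the mutant group. No mutant reached the lowest control, and edgeR's quasi-likelihood test gave a log2 fold change of -1.48 (adjusted p = 0.00026, Benjamini-Hochberg over all genes tested). With the neuron and Schwann cell scores described below in the fit it was -1.41 and did not pass (adjusted p = 0.0929). Sox2, the locus of the Cre, had 33.9 ± 6.49 CPM in controls and 24.8 ± 3.60 CPM in mutants, a difference that did not pass with edgeR (log2 fold change -0.45, adjusted p = 0.143). Sox2 did pass with DESeq2 (adjusted p = 0.0349) and with a replicate block in edgeR (adjusted p = 0.0467). Hair cell markers summed to 528–606 CPM in controls and 532–648 CPM in mutants, and supporting cell markers to 5136–6252 and 4949–5973 CPM. Neuron and Schwann cell markers were more abundant in mutant libraries, and their values are given below beside the factors.

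None of the 6 prosensory factors tested passed the threshold between genotypes. At an adjusted p under 0.05 edgeR called 35 of 18459 genes, which is 0.19%, and 0 of the 6 factors. At an unadjusted p under 0.05 it passed 10.6% of genes and again 0 of the 6. DESeq2 passed 619 of 18376 genes at the adjusted threshold and 1988 at the unadjusted one, with 0 of the 6 at either. Limma-voom passed 19 and 1855 of 18459 genes, again with 0 of the 6. The ranges of the genotypes did not overlap for 0.997% of genes and for 0 of the 6. Fitted values were higher in mutants for 5 of the factors and lower for 1, with a median log2 fold change of 0.07 against 0.003 over all genes tested. Fitted log2 fold changes of the factors lay between -0.20 and 0.19.

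**Figure D1:**
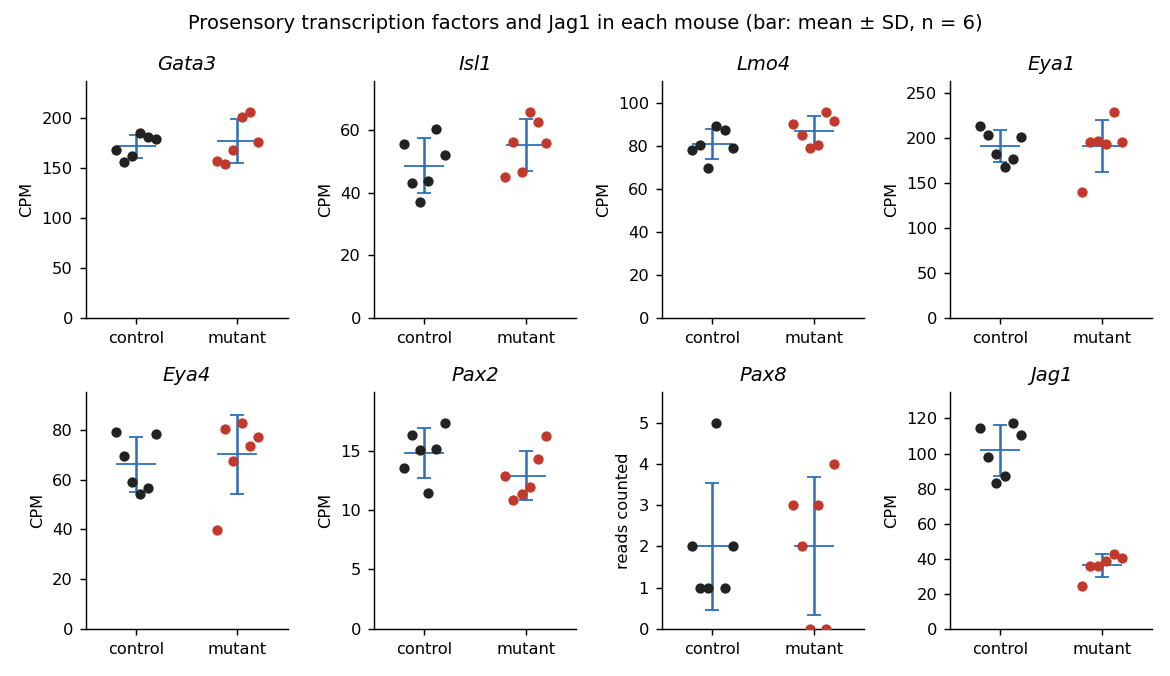
Level of each prosensory factor and of Jag1 in each mouse, in CPM on axes that start at 0 (reads counted for Pax8). Points are mice, and bars are the mean ± SD of 6 mice. The 6 mutants lie below every control for Jag1, whereas the ranges of the genotypes overlap for each factor.

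The levels of the factors in the P6 cochlea spanned a wide range. Levels were compared between genes only after division by the exonic length of each gene model, as CPM per kb. Gata3 was highest at 44.0 CPM per kb as the mean of 12 mice. Eya1 (24.5 CPM per kb) and Lmo4 (23.8 CPM per kb) followed, and their order held in 8 of 12 mice only, with ranges that overlapped. Isl1 had 13.1, Eya4 7.24 and Pax2 2.56 CPM per kb. Each of these neighboring steps held in 12 of 12 mice without overlap. Pax8 was last at 0.0101 CPM per kb.

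**Figure D2:**
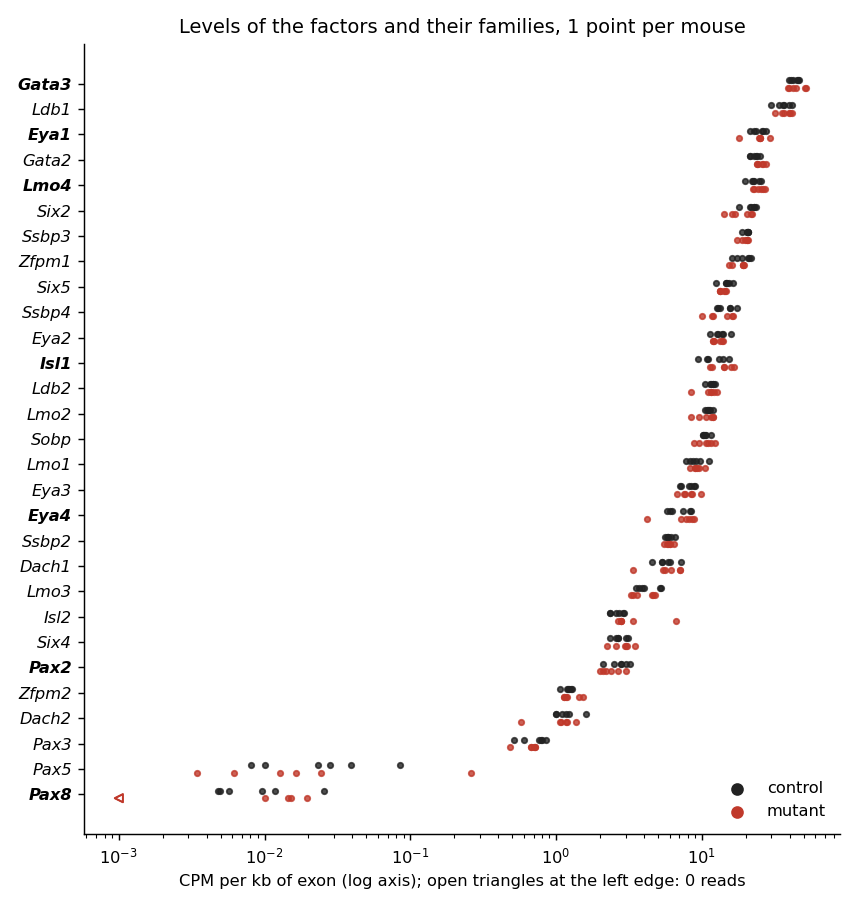
Level of the prosensory factors (bold) and of 22 genes of their families and partners in CPM per kb of exon on a log axis, with 1 point per mouse. Gata3 is highest at about 44.0 CPM per kb and Pax8 lowest. Mutants at 0 reads of Pax8, 2 in number, share 1 open triangle.

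Gata3 encodes a zinc finger factor needed for formation of the cochlea and for hearing. Its level was 156.7, 174 and 185 CPM in the lowest, median and highest control, and 154.8, 172 and 206 CPM in mutants. The mutants spanned the whole control range. Control and mutant means were 172 ± 11.5 and 178 ± 21.9 CPM, with a log2 fold change of 0.04 (95% interval -0.13 to 0.21, adjusted p = 0.931). An exact two-sided permutation test of the 12 mice gave p = 0.6515. Exons of Gata3 overlap those of 9230102O04Rik on the same strand and of Gm13256 on the other strand, which had mean counts of 35.1 and 13.4. The number of reads shared between them was not measured. Gata2, its closest relative in the table, had 124 ± 7.97 CPM in controls and 137 ± 8.23 CPM in mutants. All 6 mutants exceeded the control median of Gata2, but the difference did not pass after adjustment (log2 fold change 0.14, unadjusted p = 0.0348 and adjusted p = 0.408 by edgeR).

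Isl1 encodes a LIM-homeodomain factor of sensory progenitors, which is also expressed in spiral ganglion neurons. It had the largest fitted increase of the 6 factors tested. Controls had 37.0, 47.8 and 60.4 CPM (lowest, median and highest) and mutants 44.8, 56.0 and 65.7 CPM. The ranges overlapped, and 4 of 6 mutants lay above the control median. The log2 fold change was 0.19 (95% interval -0.08 to 0.45, adjusted p = 0.705), and the exact permutation test gave p = 0.1991. When the hair cell and supporting cell scores of each library were added to the fit, the log2 fold change became 0.65, at an unadjusted p of 0.000184 that edgeR's adjustment brought to 0.170. The supporting cell score itself differed between genotypes, as given below. Isl2, a relative expressed in neurons, had 14.6 CPM in mutant 4 and 5.12–7.39 CPM in the other 11 mice. Its log2 fold change of 0.42 (adjusted p = 0.511 by edgeR) was 0.13 without mutant 4, the mouse with the highest neuron score.

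Lmo4 levels were 70.1, 79.9 and 89.6 CPM in the lowest, median and highest control and 79.2, 87.9 and 96.0 CPM in mutants. The mutants were shifted upward within an overlapping range, and 5 of 6 lay above the control median. The log2 fold change was 0.11 (95% interval -0.04 to 0.26, adjusted p = 0.684 by edgeR, exact permutation p = 0.1385). Ldb1, which encodes the cofactor for which LMO and LIM-homeodomain proteins compete, averaged 167 ± 19.6 CPM (controls) and 173 ± 16.6 CPM (mutants; log2 fold change 0.05, adjusted p = 0.929 by edgeR).

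Eya1 encodes a transcriptional coactivator with phosphatase activity, mutated in branchio-oto-renal syndrome. Controls had 168, 192 and 213.5 CPM (lowest, median and highest) and mutants 140, 196 and 229 CPM. The genotype means, 191 ± 17.8 and 192 ± 28.8 CPM, were nearly equal, and both the lowest and the highest mouse were mutants. The log2 fold change was 0.01 (95% interval -0.21 to 0.22, adjusted p = 0.994 by edgeR), and its sign depended on the processing.

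Eya4, which underlies a dominant form of progressive deafness, was the most variable of the 6 tested factors among mutants. Controls had 54.4, 64.2 and 79.0 CPM and mutants 39.7, 75.4 and 82.9 CPM (lowest, median and highest). Mutant 1 stood apart at 39.7 CPM, while the other 5 mutants had 67.5–82.9 CPM, all above the control median. The log2 fold change was 0.09 (95% interval -0.26 to 0.43, adjusted p = 0.930 by edgeR). Without mutant 1 it was 0.21 (adjusted p = 0.384 by edgeR). Mutant 1 was also the lowest mouse for Eya1 and had the lowest Jag1 level, the highest Schwann cell score and the lowest supporting cell score of the 12 mice. The part of these in its Eya values was not tested.

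No difference in the balance of Eya1 and Eya4 was detected. The ratio of Eya1 to Eya4 counts within a mouse was 2.58–3.12 in controls and 2.33–3.52 in mutants, with mutant 1 highest. Geometric means were 2.91 and 2.78 (exact permutation test, p = 0.5368). Of the summed CPM per kb of the 4 Eya genes, Eya1 made up 46.1 ± 2.52% in controls and 46.2 ± 3.03% in mutants. Eya2 made up 25.4% and 24.6%, Eya3 15.3% in both genotypes, and Eya4 13.2% and 13.9%. Over the 6 controls Eya1 and Eya4 moved together (Pearson r = 0.95, exact permutation p = 0.0125; Spearman rho = 0.94, p = 0.0167), and r was 0.92 without the 2 mice farthest from the median. The adjusted p-values over 30 relations between the factors within a genotype were 0.208 for r and 0.5 for rho, and 0 of the 30 passed. By r, 2 of the 30 had an unadjusted p under 0.05. The other was Isl1 with Eya4 in mutants (r = 0.77, exact permutation p = 0.0139, adjusted p = 0.208), where r was 0.15 without the 2 farthest mice. Over the 6 mutants the r of Eya1 with Eya4 was 0.86 (exact permutation p = 0.131) and rho was -0.03 (p = 1.0). Without the 2 farthest mice, mutants 1 and 5, r was -0.66, so the mutant value rests on those mice. The remaining mutants spanned only 193.4–196.4 CPM of Eya1, too narrow a range for the sign of that r to be read.

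**Figure D3:**
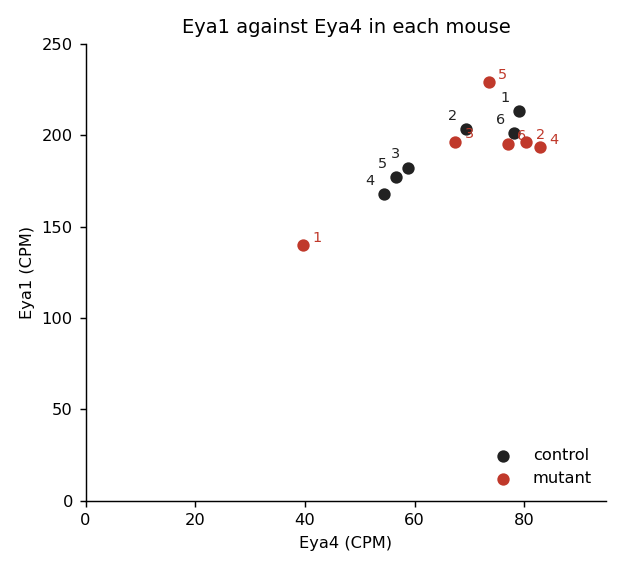
Eya1 against Eya4 in each mouse, both in CPM on axes that start at 0, with the replicate number beside each point. The 6 controls lie along a line (r = 0.95), and mutant 1 lies apart from the other 5 mutants at 39.7 CPM of Eya4.

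Pax2 was the only factor with a lower fitted level in mutants. Controls had 11.4, 15.1 and 17.3 CPM and mutants 10.8, 12.4 and 16.2 CPM (lowest, median and highest). The ranges overlapped, and 5 of 6 mutants lay below the control median. The log2 fold change was -0.20 (95% interval -0.45 to 0.05, adjusted p = 0.632 by edgeR, exact permutation p = 0.1385). With the hair cell and supporting cell scores in the fit it was -0.05 (adjusted p = 0.948 by edgeR).

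Pax8, the partner of Pax2 in the early otic placode, was barely detected. The 6 controls had 1–5 reads each and 12 in total, and the 6 mutants had 0–4 reads each and 12 in total. A count of 3, the limit that a count of 0 allows, is 0.082–0.107 CPM in these libraries, and both genotypes averaged below it. Pax8 did not enter the test and no fold change is given.

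Short sequences before the transcription starts are shown for the factors whose promoter windows hold a binding motif of RBPJ, the DNA-binding effector of Notch signaling, or of GATA proteins such as GATA3. The windows reach from 250 bases before to 50 bases after each start in RefSeq (GRCm38.p6), and 6 of the 7 genes had 11 windows. The letters TGGGAA, the core recognized by RBPJ, were searched on both strands and occurred in 25.6% of all 32851 mouse windows. Among the factors they occurred in 1 window of Pax2, 149 bases before a start that lies upstream of the Pax2 gene model used for exonic length. The letters TGATAA, 1 form of a GATA site, occurred in 9.05% of all windows and among the factors only for Isl1, 115 bases before its start. A further form, AGATAA, was in 11.2% of all windows and also only in that of Isl1, after the start. Capitals mark the motif, and each line reads 5′ to 3′ on the strand of the gene.
Pax2, chr19:44746440-44746469, plus strand: gcggagtgaattTGGGAAgtcttggggaag
Isl1, chr13:116309786-116309815, minus strand: ggggctgaaataTGATAAtcagaacagctg
These matches are descriptions of the letters in the windows. Neither Pax2 nor Isl1 passed the test between genotypes.

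**Figure D4:**
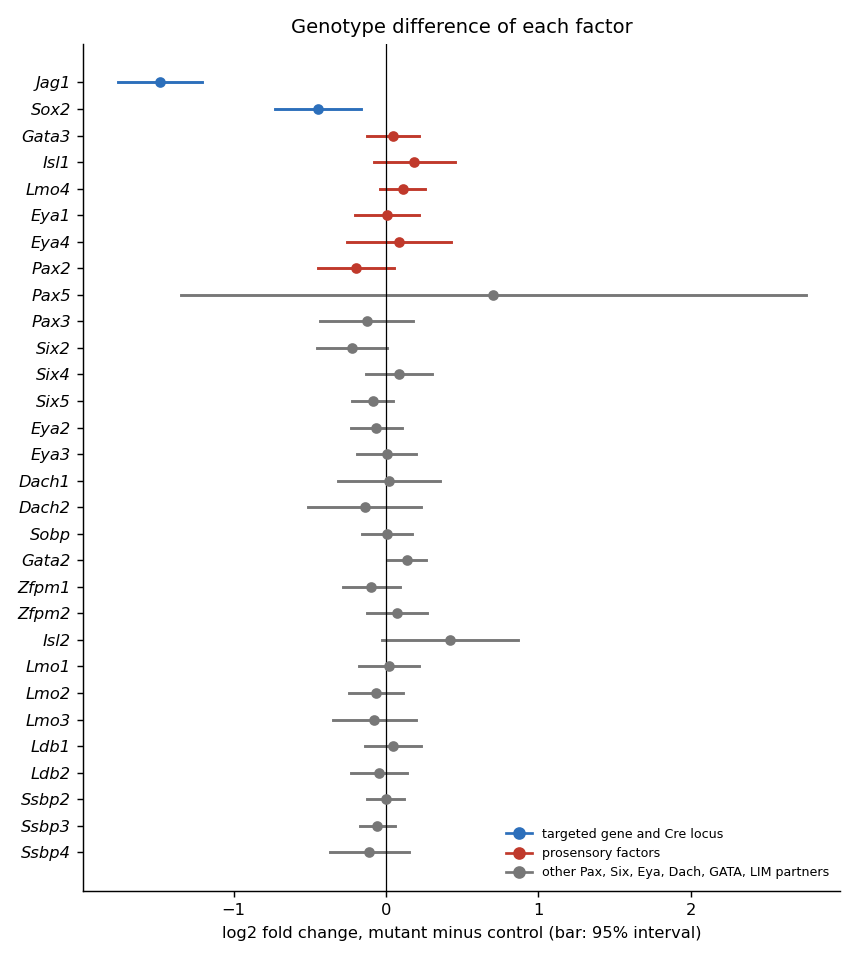
Log2 fold change, mutant minus control, with its 95% interval for Jag1 and Sox2 (blue), 6 prosensory factors (red) and 22 genes of their families and partners (gray). Jag1 lies at -1.48, and every interval of the red factors includes 0.

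Of 22 further genes tested, which are relatives of Pax2, Six2, Eya1, Dach1, Gata3, Isl1 and Lmo4 and their cofactors, 0 passed after adjustment and 1, Gata2, had an unadjusted p under 0.05. Fitted values were higher in mutants for 10 and lower for 12, with a median log2 fold change of -0.03 against 0.003 over all genes. Six2 averaged 45.9 ± 4.06 CPM in the control and 39.4 ± 6.94 CPM in the mutant group (log2 fold change -0.22, adjusted p = 0.494 by edgeR). Six5 had a log2 fold change of -0.09 (adjusted p = 0.734 by edgeR), with 6 of 6 mutants below the control median.

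Of 21 other otic regulators tested 0 passed after adjustment, with 7 fitted higher and 14 lower. Sox2 was the only one with an unadjusted p under 0.05, and it was the 1 regulator called by DESeq2 and with the replicate block. Etv4 and Etv5, transcriptional targets of FGF signaling, each had a log2 fold change of -0.14 (adjusted p of 0.568 and 0.635 by edgeR). Id3 and Id2, inhibitors of basic helix-loop-helix factors, had log2 fold changes of -0.14 and 0.02 (adjusted p of 0.679 and 0.974).

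Of 8 tested genes of hair cell or neuron differentiation and FGF ligands 0 passed, with 4 fitted higher and 4 lower. Their place relative to the prosensory factors was not tested. Fgf3 alone had an unadjusted p under 0.05. It had 0.814 ± 0.243 CPM in controls and 0.312 ± 0.168 CPM in mutants, and 6 of 6 mutants lay below the control median (log2 fold change -1.37, adjusted p = 0.104 by edgeR). DESeq2 called Fgf3 (log2 fold change -1.38, adjusted p = 0.0133). The Fgf3 counts were low, with 14–42 reads per control and 2–20 per mutant. Atoh1, the factor that starts hair cell differentiation, had 0.350 ± 0.106 and 0.453 ± 0.129 CPM (adjusted p = 0.730). Its followers in hair cells, Gfi1 and Pou4f3, had log2 fold changes of -0.07 and -0.07 (adjusted p of 0.917 and 0.927), and Fgf10 had -0.11 (adjusted p = 0.916).

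Neuron and Schwann cell markers were higher, and supporting cell markers slightly lower, in mutant libraries. The share of the factors' reads that came from these cells was not measured. The neuron score, the mean log2 CPM of 15 markers, was 1.66 higher in mutants (exact permutation p = 0.0108, adjusted p = 0.0325 over 9 marker lists), with 14 of 15 markers fitted higher and 0 called. Their summed level was 221–362 CPM in controls and 248–1527 CPM in mutants. The Schwann cell score was 1.70 higher (exact permutation p = 0.00433, adjusted p = 0.0325), with 10 of 10 markers fitted higher, 0 called, and sums of 143–936 and 734–4724 CPM. The supporting cell score was 0.16 lower (exact permutation p = 0.0108, adjusted p = 0.0325), with 9 of 10 markers fitted lower and 0 called. The hair cell score differed by 0.07 (exact permutation p = 0.437), with 7 of 12 markers fitted higher and 5 lower. Of these only Pvalb had an unadjusted p under 0.05 (log2 fold change 1.42, adjusted p = 0.146 by edgeR). Pvalb was part of the hair cell score in the fits that included that score. No marker of any list was at 0 in all mice.

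Within a genotype these scores were set against the factors. Of 48 relations 0 passed after adjustment and 5 had an unadjusted p under 0.05 by the exact permutation test of Pearson's r. In mutants Gata3 was lower where the Schwann cell score was higher (r = -0.94, p = 0.0222, adjusted p = 0.267, and rho = -0.83, p = 0.0583, adjusted p = 0.311, exact permutation tests). The r was -0.95 without the 2 mice farthest from the median score, and over the controls it was -0.48 (exact permutation p = 0.371). In controls Eya1 was higher where the neuron score (r = 0.92, exact permutation p = 0.00833, adjusted p = 0.233, and rho = 0.94, p = 0.0167) and the Schwann cell score (r = 0.85, exact permutation p = 0.00972, adjusted p = 0.233, and rho = 0.94, p = 0.0167) were higher. Without the 2 farthest mice these r were 0.74 and 0.56, and over the mutants they were -0.45 and -0.70 (exact permutation p of 0.347 and 0.0792). The others under 0.05 were in controls, for Lmo4 with the hair cell score (r = -0.91, exact permutation p = 0.0222, adjusted p = 0.267) and for Isl1 with the supporting cell score (r = 0.87, exact permutation p = 0.0278, adjusted p = 0.267). With the neuron and Schwann cell scores in the edgeR fit, the log2 fold change of Gata3 was 0.25 (adjusted p = 1.0). That of Isl1 was 0.16 (adjusted p = 1.0). Of the factors, only Gata3 had an unadjusted p under 0.05 there (0.0301 by edgeR), as did 524 of 18459 genes. With the hair cell and supporting cell scores in the fit, Gata3 had 0.24 (adjusted p = 0.471) and Lmo4 0.26 (adjusted p = 0.344). Eya1 had 0.20 (adjusted p = 0.593) and Eya4 0.33 (adjusted p = 0.588). In that fit 3 of the 6 factors, Isl1, Lmo4 and Gata3, had an unadjusted p under 0.05, as did 9.89% of all genes.

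**Figure D5:**
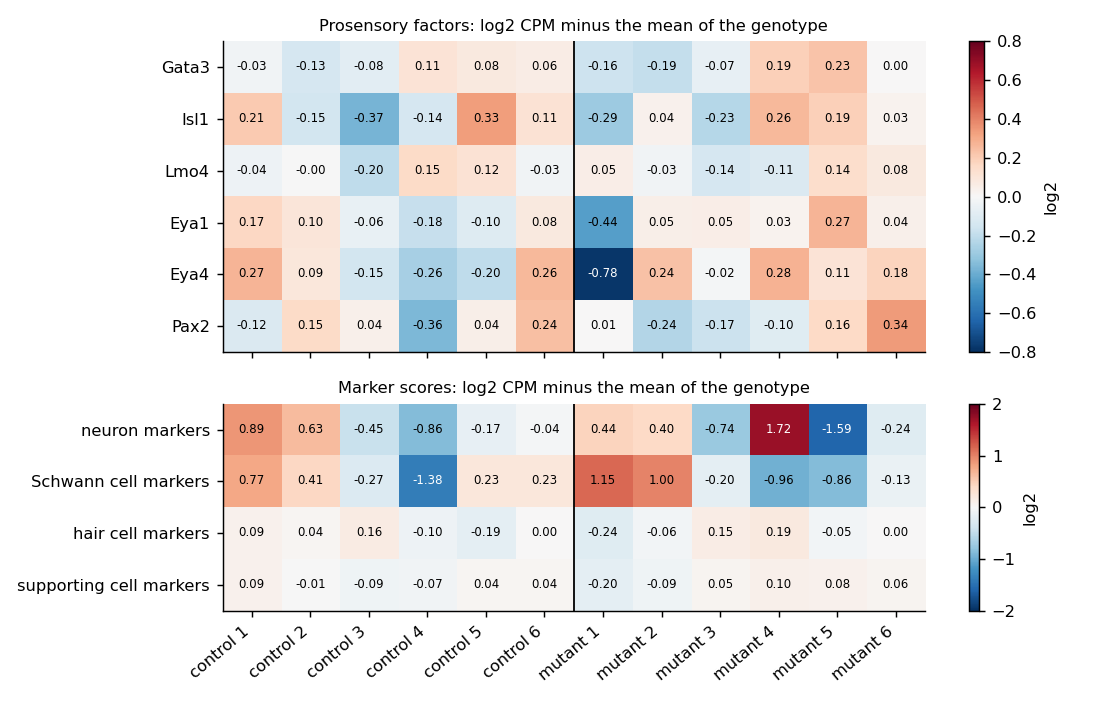
Log2 CPM of 6 prosensory factors (upper panel) and 4 marker scores (lower panel) in each mouse, minus the mean of its genotype, on separate color scales in log2 units. Mutant 1 is lowest for Eya1 (-0.44) and Eya4 (-0.78), and mutants 5 and 6 lie above the mutant mean for all 6 factors.

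Deviations of the factors within a genotype were compared mouse by mouse, with no test. In mutants 5 and 6, 6 of 6 factors lay above the mean of the mutants. Gata3 in mutant 6 was only 0.0013 above it on the log2 scale. In control 6, 5 of 6 lay above the mean of the controls. In mutant 3 and control 3, 5 of 6 lay below the mean of their genotype. In mutant 1, Eya4 was 0.78 and Eya1 0.44 below the mutant mean on the log2 scale, whereas Pax2 and Lmo4 were 0.005 and 0.05 above it.

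The genes whose levels varied most like each factor were ranked by Pearson's r of log2 CPM, centered on the mean of each genotype, over 12 mice that share library depth and composition, among 14823 genes of at least 1 CPM. The genes named were picked as the highest r among all those ranked, a selection that by itself favors high values, and no r was tested. Pax2 was followed most closely by Hmx3 (r = 0.93), a homeobox gene of the developing ear, and then by C3 (r = 0.84) and A630001G21Rik (r = 0.83). Isl1 was followed by Gad1 (r = 0.90), Hey2 (r = 0.90), a gene of the HES and HEY family, and Hmga2 (r = 0.89). For Gata3 the closest were Gm6548 (r = 0.94), Nadsyn1 (r = 0.89) and Smyd4 (r = 0.88), and for Lmo4 Ube2e3 (r = 0.96), Gm10762 (r = 0.94) and Glt28d2 (r = 0.94). Eya1 was followed by Daam1 (r = 0.95), Epha3 (r = 0.94) and Hook1 (r = 0.94), and Eya4 ranked 129 for it (r = 0.88). Eya4 was followed by Ccdc88a (r = 0.98), Dpy19l4 (r = 0.98) and Arhgap20 (r = 0.97).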

How the data were processed

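Raw counts, 1 column per library, were deposited by symbol for 12 mice, from single-end reads of 100 nt. The submitters' processing notes name Trimmomatic 0.32, STAR 2.4.2a, HTSeq 0.9.1 and DESeq2 1.10.1 with build GRCm38.p4. The strand setting of the counting is not given in the sources used here. A table of the authors' own comparison, which holds a mean, fold changes and p-values, was not used.

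The test between genotypes was edgeR's quasi-likelihood test (version 4.0.16, R 4.3.3, mean count of 5 or more, TMM, robust, genotype only, Benjamini-Hochberg, threshold 0.05). Limma 3.58.1 (limma-voom) and DESeq2 1.42.0 were alternatives. The test was checked on simulated data. Single values were compared by exact two-sided permutation over 924 divisions of the mice, on log2(CPM + 0.1), with a smallest possible p of 0.00216. Floors cover counting error only. Marker scores are means of log2 CPM with a prior count of 2. Exonic lengths came from GENCODE M21 gene models (GRCm38), and promoter sequences from RefSeq.

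Libraries of the same genotype differed by 13.5 to 71.0 times counting error (chi-square per degree of freedom, 30 pairs), so none was counted as a duplicate. P-values measure the spread between mice. Correlations of the deviations of same-numbered libraries were from -0.187 to 0.272. These values cannot show whether same-numbered mice were paired, for instance by litter, and the main fit used no pairing.

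The factors and gene lists were chosen with earlier results of these data known. Named genes are Jag1, Sox2 and the factors, the 4 genes of each list with the smallest p and the 2 with the highest CPM per kb, and the 3 most similar genes of each factor. The results of 2 listed genes are not reported here, and counts over the lists leave them out. Relations between pairs of factors were added after seeing the data.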

Additional observations from a re-analysis of the deposited data

Results flagged for a closer look

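In 64 groups of 6 mice (the tested factors, the other named genes, the marker scores and the Eya1 to Eya4 ratio in each genotype), 3 held a mouse whose gap to the nearest other exceeded Dixon's 95% critical value, and chance alone sets apart about 5% of such groups. Eya4 was 39.7 CPM in mutant 1 and 67.5–82.9 CPM in the other mutants. Isl2 was 14.6 CPM in mutant 4 and 5.85–7.39 CPM in the other mutants. Six2 was 38.3 CPM in control 3 and 45.7–49.8 CPM in the other controls.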

How the results depend on the processing

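None of the prosensory factors was called under any of 24 alternatives, and their lowest adjusted p was 0.170, for Isl1 with hair cell and supporting cell scores. The number of all genes called moved from 35 to 619 with DESeq2, 19 with limma-voom, 57 with no filter, 131 with the replicate block, 23 with the Xist level, 1 with neuron and Schwann cell scores and 1 with hair cell and supporting cell scores. Leaving out 1 library gave 14 to 356 calls, the highest without mutant 5 and the lowest without control 2 or control 6. A library correlated best with its own number in 2 of 6 cases, which cannot show whether the replicate numbers mark paired mice. The replicate block called 0 factors. Values near 0 changed sign. Eya1 had a log2 fold change of -0.0039 with limma-voom, -0.0010 with no filter, -0.0024 with the replicate block and -0.051 to 0.082 without 1 library. Gata3 ranged from -0.0044 (without mutant 5) to 0.080 without 1 library. Ldb1 ranged from -0.011 to 0.090 and Id2 from -0.016 to 0.080 without 1 library. With neuron and Schwann cell scores Six5 had 0.012, Etv5 0.059, Gfi1 0.0094 and Pou4f3 0.17. With hair cell and supporting cell scores Sox2 had 0.062, Id2 -0.018, Fgf10 0.013 and Gfi1 0.075. Without 1 library the neuron score difference was 1.31 to 1.98, that of Schwann cells 1.43 to 1.89, of supporting cells -0.18 to -0.12, of macrophages -0.28 to -0.19, of dividing cells -0.034 to 0.065 and of erythroid cells -0.33 to 0.25. The first 3 lost their calls in 8, 4 and 8 of the 12 cases, and the macrophage score gained one without mutant 1. The cause was not tested. No ratio of Pax2 to Pax8 was computed without a pseudocount, because 2 mutants had 0 reads of Pax8. With 0.5 added, the exact permutation test gave p = 0.790, but Pax8 had too few reads for this p to be read as no difference. Sox2 was called by DESeq2 and with the replicate block, and Fgf3 by DESeq2, while Jag1 lost its call with neuron and Schwann cell scores. Depth limits Pax8, Fgf3 and Atoh1, which had few reads.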
